A study of Homo sapiens with 3 samples.

Results

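The miR-15/16 seed family comprises the microRNAs (miRNAs) that share a seed, bases 2 to 8 of the mature strand, with miR-16-5p. The 10 mature miRNAs described here were listed by name: hsa-miR-15a-5p, hsa-miR-15b-5p, hsa-miR-16-5p, hsa-miR-195-5p, hsa-miR-497-5p and hsa-miR-424-5p, which carry the seed, the cluster neighbour hsa-miR-503-5p, and the opposite-arm products hsa-miR-15b-3p, hsa-miR-16-2-3p and hsa-miR-424-3p. The deposited tables listed 2588 mature miRNAs at 2813 loci, and all 10 members were among them. Small RNA was sequenced from untreated parental cells of 3 cancer cell lines, namely C643 from a thyroid cancer, ES-2 from an ovarian cancer and Huh-7 from a liver cancer. All were grown in DMEM with serum and harvested 48 hours after seeding, and no gene was altered in them. Each line was 1 library, so no difference between lines has a replicate check, and intervals given below cover counting error only. PCR copies of a molecule were not told apart, so each read was counted as independent and the intervals may be too narrow.

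Members of this family are among the best known growth-restraining miRNAs. Their shared seed pairs with mRNAs of cell cycle and survival factors, among them cyclins D and E and the apoptosis inhibitor BCL2, and the genes MIR15A and MIR16-1 are often deleted in chronic lymphocytic leukemia. A primary transcript is cut to a hairpin in the nucleus and to a duplex of a 5p and a 3p strand in the cytoplasm, of which usually 1 strand is kept by Argonaute. Because the human genes come in pairs and clusters, arms and neighbours cut from the same transcript can be set against each other within a library.

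Mature sequences of all 10 members were found in RefSeq (GRCh38.p14). The 5p members are shown first because their seed defines the family. They are written 5′ to 3′ with the seed in capitals.
hsa-miR-16-5p: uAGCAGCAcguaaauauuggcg
hsa-miR-195-5p: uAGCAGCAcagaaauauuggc
hsa-miR-15a-5p: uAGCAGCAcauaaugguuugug
hsa-miR-15b-5p: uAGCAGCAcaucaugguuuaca
hsa-miR-497-5p: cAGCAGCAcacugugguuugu
hsa-miR-424-5p: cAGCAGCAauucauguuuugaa
hsa-miR-503-5p: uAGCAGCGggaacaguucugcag
Of 2370 mature miRNAs in the reference, 7 carried AGCAGCA at bases 2 to 8, the 6 members and miR-6838-5p. The seed of miR-503-5p shares its first 6 bases with them and ends on another base. Outside the seed the members differ. Aligned from base 1 without gaps, miR-16-5p and miR-195-5p were identical at 19 of 21 bases, miR-15a-5p and miR-15b-5p at 18 of 22, and miR-16-5p and miR-424-5p at 12 of 22.

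The 3p products of the same hairpins carry other seeds, again in capitals, and are shown because they name the gene a read came from where the 5p strand does not.
hsa-miR-16-2-3p: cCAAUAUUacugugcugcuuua
hsa-miR-16-1-3p: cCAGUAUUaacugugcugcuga
hsa-miR-15b-3p: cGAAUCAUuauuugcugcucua
hsa-miR-424-3p: cAAAACGUgaggcgcugcuau
miR-16-5p is made from both MIR16-1 and MIR16-2. Their hairpins are shown with the mature arms in capitals, first MIR16-1 (chr13:50048973-50049061, minus strand) and then MIR16-2 (chr3:160404745-160404825, plus strand).
MIR16-1: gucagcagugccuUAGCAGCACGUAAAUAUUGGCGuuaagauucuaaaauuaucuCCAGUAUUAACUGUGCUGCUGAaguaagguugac
MIR16-2: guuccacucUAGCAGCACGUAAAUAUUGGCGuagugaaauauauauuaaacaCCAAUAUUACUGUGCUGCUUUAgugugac
The 5p arms are the same in both hairpins, whereas the 3p arms differ, so that miR-16-2-3p belongs to MIR16-2 and miR-16-1-3p to MIR16-1.

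The members come from 4 pairs of neighbouring genes (GRCh38, GENCODE version 29). MIR15A (chr13:50049119-50049201, minus strand) lies 57 bases from MIR16-1 inside the non-coding gene DLEU2, where it overlaps an exon of 2 of the 8 transcripts that span it and MIR16-1 lies in introns only. MIR15B (chr3:160404588-160404685, plus strand) lies 59 bases from MIR16-2 in introns of SMC4, which encodes a condensin subunit, and opposite an intron of the protein-coding gene AC079594.2. MIR195 (chr17:7017615-7017701, minus strand) and MIR497 (chr17:7017911-7018022, minus strand) are 209 bases apart and overlap an exon of 1 of 2 transcripts of their non-coding host MIR497HG. MIR424 (chrX:134546614-134546711, minus strand) overlaps the annotated exons at the start of the non-coding gene MIR503HG, and MIR503 (chrX:134546328-134546398, minus strand) lies 215 bases further on in its intron.

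The deposited values are a signal, namely reads scaled by a library factor. Each column moved in steps of its smallest nonzero value, so whole reads could be recovered. C643 had a recovered depth of 8183100 miRNA reads, ES-2 of 1663181 and Huh-7 of 2173587, with 1 read worth 0.117, 0.694 and 0.282 units. A share below is the percentage of a library's miRNA reads, with its Wilson 95% confidence interval (CI). The limit for a miRNA without a read, the share of 3 reads, was 3.67e-05%, 0.00018% and 0.000138% for C643, ES-2 and Huh-7. The column totals differed, with ES-2 at 1.89 times Huh-7, so a comparison by shares lowers differences of ES-2 minus Huh-7 by about 0.92 on the log2 scale. The C643 values stand in a separate table, and since a separate normalization is possible its levels against the other lines are described only.

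Markers of the tissue of origin were read in each library. Liver miRNAs (miR-122-5p, miR-122-3p and miR-885-5p) summed to 13.8% of reads in Huh-7 against 0.00595% in C643 and 0.000361% in ES-2, where 1 of 3 had reads. Epithelial markers (miR-200a-3p, miR-200b-3p, miR-200c-3p, miR-141-3p and miR-429) summed to 0.00125%, 0.00523% and 0.382% in C643, ES-2 and Huh-7, and muscle and stromal markers (miR-1-3p, miR-133a-3p, miR-143-3p and miR-145-5p) to 0.255%, 0.000962% and 0.0432%. In C643 the muscle and stromal sum was mostly miR-143-3p (20687 of 20852 reads). By share miR-1-3p, miR-133a-3p and miR-145-5p were not higher in C643 than in Huh-7. Red blood cells are rich in miR-16-5p. Their defining miR-451a had 0, 1 and 0 reads in C643, ES-2 and Huh-7, whereas the red blood cell list as a whole (miR-451a, miR-144-3p, miR-144-5p and miR-486-5p) was at 0.0027%, 0.000601% and 0.127%, of which miR-486-5p alone made up the value of Huh-7 with 2766 reads. White blood cell markers (miR-142-3p, miR-142-5p, miR-223-3p and miR-150-5p) summed to 0.00033%, 0.048% and 0.000138%, with miR-142-3p at 0.0326% in ES-2. The part of these differences in the members' values was not tested.

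The 6 miRNAs with the family seed made up a small share of each library. Together they took 0.618% of miRNA reads in C643 (CI 0.613 to 0.624), whereas ES-2 reached 0.4997% (CI 0.489 to 0.511) and Huh-7 1.11% (CI 1.10 to 1.125). Huh-7 therefore held the highest family share and ES-2 the lowest, with intervals that did not overlap. miR-16-5p led the 10 members in every library.

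miR-16-5p, the founding member, was at 36510 reads or 0.446% in C643 (CI 0.442 to 0.451), 5114 reads or 0.307% in ES-2 (CI 0.299 to 0.316) and 16757 reads or 0.771% in Huh-7 (CI 0.759 to 0.783). It ranked 25, 30 and 23 among all miRNAs of these libraries. Its share in Huh-7 was above both other lines. miR-15b-5p, the partner of miR-16-5p on chromosome 3, followed among the family with 11161 reads or 0.136% in C643 (CI 0.134 to 0.139), 1907 reads or 0.115% in ES-2 (CI 0.110 to 0.120) and 5765 reads or 0.265% in Huh-7 (CI 0.258 to 0.272). By share the order of the lines was the same as for miR-16-5p, Huh-7 over C643 over ES-2, but the deposited values of miR-15b-5p were 1308 in C643 and 1324 in ES-2, so these lines turned with the scale.

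miR-15a-5p, from the chromosome 13 pair, was far lower than its paralog miR-15b-5p. It had 1025 reads or 0.0125% in C643 (CI 0.0118 to 0.0133), 230 reads or 0.0138% in ES-2 (CI 0.0122 to 0.0157) and 1034 reads or 0.0476% in Huh-7 (CI 0.0448 to 0.0506). By share C643 and ES-2 were not separated, and Huh-7 was 3.80 times C643. As deposited, ES-2 (160) was 1.33-fold higher than C643 (120).

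**Figure D1:**
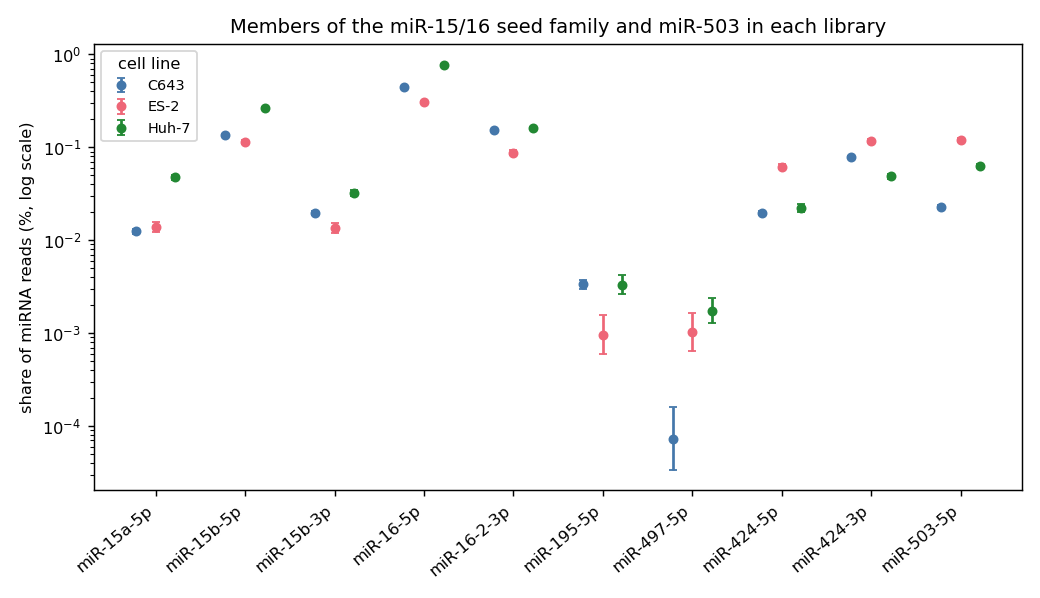
Share of miRNA reads (%, log scale) of each of the 10 members in C643, ES-2 and Huh-7, 1 library per line; points are shares and bars Wilson 95% intervals. miR-16-5p is the highest member in each library, the X-linked miR-424-5p, miR-424-3p and miR-503-5p are highest in ES-2, and miR-497-5p in C643 (6 reads) is the lowest point.

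The chromosome 17 pair was near the bottom in all 3 libraries. miR-195-5p had 273 reads or 0.00334% in C643 (CI 0.00296 to 0.00376), 16 reads or 0.000962% in ES-2 (CI 0.000592 to 0.00156) and 72 reads or 0.00331% in Huh-7 (CI 0.00263 to 0.00417). By share C643 and Huh-7 did not differ beyond counting error, and ES-2 lay below both. As deposited, C643 (32.0) was 1.58-fold higher than Huh-7 (20.3). miR-195-5p is the closest relative of miR-16-5p in sequence, and its reads per 100 reads of miR-16-5p were 0.748, 0.313 and 0.43 in C643, ES-2 and Huh-7. Whether misread copies of miR-16-5p entered its count was not tested. Its own 3p arm, miR-195-3p, had 40, 4 and 12 reads.

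miR-497-5p, which is cut from the same transcript, followed another order. It had 6 reads or 7.33e-05% in C643 (CI 3.36e-05 to 0.00016), 17 reads or 0.00102% in ES-2 (CI 0.000638 to 0.00164) and 38 reads or 0.00175% in Huh-7 (CI 0.00127 to 0.0024). ES-2 and Huh-7 had overlapping intervals, and C643 stood below both although it was the deepest library.

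The X-linked members were highest in ES-2. miR-424-5p, which carries the family seed, had 1606 reads or 0.0196% in C643, 1027 reads or 0.0617% in ES-2 and 482 reads or 0.0222% in Huh-7. miR-503-5p, its cluster neighbour, had 1866 reads or 0.0228% in C643, 1996 reads or 0.120% in ES-2 and 1374 reads or 0.0632% in Huh-7. By share the order for both was ES-2 over Huh-7 over C643. For miR-424-5p the intervals of Huh-7 (CI 0.0203 to 0.0242) and C643 (CI 0.0187 to 0.0206) overlapped, so these lines were not separated. Its deposited values had C643 (188) above Huh-7 (136). In ES-2 miR-503-5p ranked 54 of all miRNAs and could not be separated by its interval from miR-424-3p and miR-15b-5p, whereas in C643 it ranked 116 and in Huh-7 91.

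The 3p members followed their hairpins. In C643, ES-2 and Huh-7 miR-15b-3p was at 0.0198%, 0.0135% and 0.0325%, the same order as miR-15b-5p. miR-16-2-3p was at 0.152%, 0.0878% and 0.162%, again with ES-2 lowest. miR-424-3p was at 0.0793%, 0.117% and 0.0486%, with ES-2 highest as for miR-424-5p and with C643 above Huh-7, lines that miR-424-5p did not separate. Across lines the highest share of a member was between 1.84 times the lowest (miR-16-2-3p) and 23.8 times (miR-497-5p).

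The make-up of the seed family, the reads of its 6 members set to 100%, was dominated by the chromosome 3 and 13 products. miR-16-5p and miR-15b-5p together took 94.2%, 84.5% and 93.3% of C643, ES-2 and Huh-7. The remainder in ES-2 was mainly miR-424-5p, at 12.4% against 3.175% in C643 and 1.996% in Huh-7. miR-15a-5p took 2.03%, 2.77% and 4.28% in C643, ES-2 and Huh-7, and the chromosome 17 pair 0.552%, 0.397% and 0.456%. With miR-503-5p counted as a seventh, miR-424-5p and miR-503-5p were 6.62%, 29.3% and 7.27% of 5p reads.

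**Figure D2:**
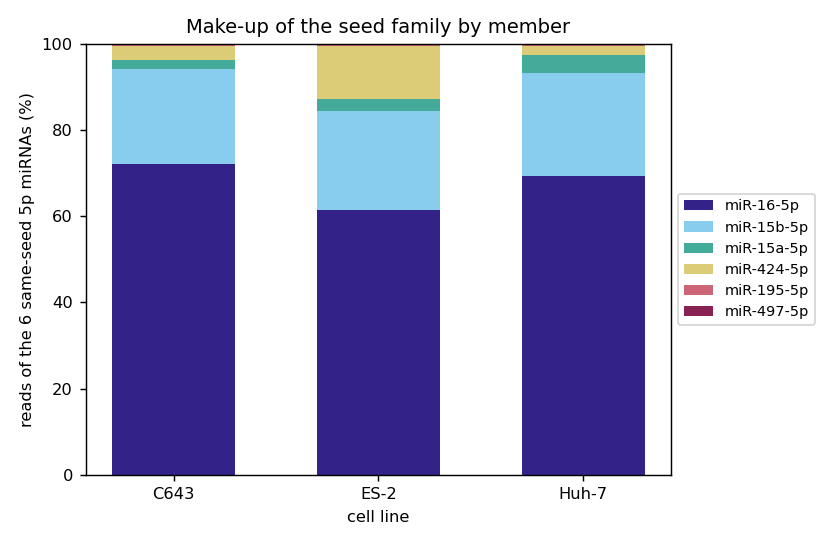
Stacked bars of the reads of the 6 same-seed 5p miRNAs, set to 100% in each of the 3 libraries (y axis, percent). miR-16-5p takes 72.2%, 61.5% and 69.4% of C643, ES-2 and Huh-7, and the miR-424-5p segment is widest in ES-2 (12.4%); the chromosome 17 pair, under 1%, is barely visible.

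Reads of miR-16-5p were listed at both of its loci. In C643 the chromosome 13 locus held 18082 reads and the chromosome 3 locus 18428. These loci held 2602 and 2512 reads in the ES-2 library and 8301 and 8456 in that of Huh-7. The chromosome 13 part was 49.5% (CI 49.01 to 50.04), 50.9% (CI 49.5 to 52.2) and 49.5% (CI 48.8 to 50.3), and each interval held an even split. The mature sequence is identical at both loci, so these numbers do not say which gene a read came from.

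The 3p arms, which do differ, were strongly uneven. miR-16-2-3p had 12427 reads in C643 against 0 of miR-16-1-3p, at least 4142-fold higher when 3 reads stand in for 0. The counts were 1460 against 3 in ES-2 (ratio 487, CI 157 to 1511) and 3519 against 12 in Huh-7 (ratio 293, CI 166 to 517). The other 3p arm of the chromosome 13 pair, miR-15a-3p, had no read in any library. Since the strands of a duplex are kept to different degrees, these ratios describe reads of the mature arms and not the output of the genes.

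Arms of the same hairpin kept their order in every library. For MIR15B the 5p arm was higher, at 6.87 (C643), 8.51 (ES-2) and 8.15 (Huh-7) times the 3p arm. For MIR424 the 3p arm was higher, at 4.04 times the 5p arm in C643 (CI 3.83 to 4.27), 1.89 times in ES-2 (CI 1.76 to 2.04) and 2.19 times in Huh-7 (CI 1.97 to 2.44). The MIR424 strand without the family seed thus had more reads in each library. The excess was largest in C643, whose interval lay apart from those of the other lines. The hairpin of MIR424 is shown with both arms in capitals (chrX:134546614-134546711, minus strand, RefSeq GRCh38.p14).
MIR424: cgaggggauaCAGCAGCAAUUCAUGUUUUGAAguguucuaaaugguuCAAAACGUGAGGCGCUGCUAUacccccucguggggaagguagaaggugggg
The opposite arms miR-497-3p and miR-503-3p were at or near 0, with no read of miR-497-3p and 1 read of miR-503-3p in C643 only.

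Cluster partners differed in how constant their ratio was. miR-195-5p was 45.5 times miR-497-5p in C643 (CI 20.3 to 102), but 0.941 times in ES-2 (CI 0.476 to 1.86) and 1.89 times in Huh-7 (CI 1.28 to 2.81). The ratio in C643 was 48.3 times that in ES-2 (CI 16.8 to 139) and 24.0 times that in Huh-7 (CI 9.77 to 59.0), with 6 reads of miR-497-5p behind it. miR-16-5p, counted over both of its loci, stayed within 2.68 to 3.27 times miR-15b-5p. miR-503-5p was 1.16, 1.94 and 2.85 times miR-424-5p in C643, ES-2 and Huh-7. The excess of miR-15b-5p over miR-15a-5p, paralogs on different chromosomes, was 10.9-fold, 8.29-fold and 5.58-fold for these lines.

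**Figure D3:**
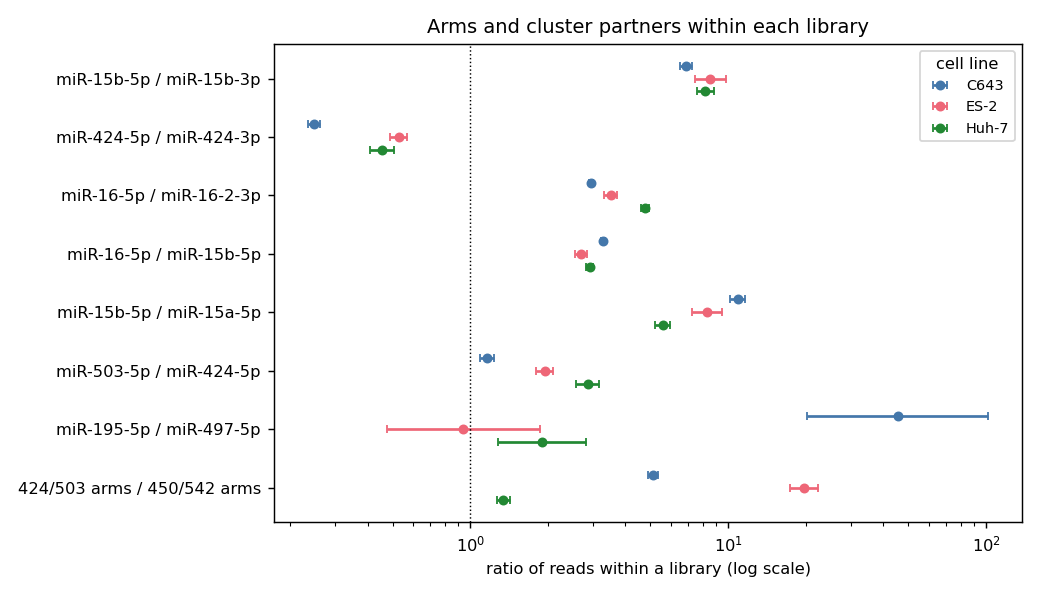
Ratios of reads within each library (x axis, log scale) for arms, cluster partners and the paralogs miR-15b-5p and miR-15a-5p, with 95% intervals from read counts. Reads of miR-16-5p include both of its loci. The dotted line marks a ratio of 1. miR-195-5p over miR-497-5p in C643 (45.5) stands apart from ES-2 and Huh-7, and miR-424-5p stays below miR-424-3p in each library.

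ES-2 and Huh-7 share a table and were compared on the log2(value + 1) scale, where a difference of 2 is 4-fold and folds of low miRNAs are understated. Of 390 miRNAs at 10 or more in either library, ES-2 was 4-fold or more higher for 19.5% and Huh-7 for 27.7%. All 10 members passed that filter. Of these, miR-424-5p and miR-424-3p, 2 members, were 4-fold or more higher in ES-2 and none in Huh-7.

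miR-424-5p had a deposited value of 713 for ES-2 against 136 for Huh-7, a log2 difference of 2.38, and miR-424-3p 1350 and 298, a log2 difference of 2.18. miR-503-5p was at 1386 and 387, a difference of 1.84. On the share scale all 3 stayed higher in ES-2, by 2.78-fold (CI 2.50 to 3.10), 2.40-fold (CI 2.23 to 2.59) and 1.90-fold (CI 1.77 to 2.03), but no member was 4-fold higher in either line there, where all miRNAs gave 16.7% toward ES-2 and 38.2% toward Huh-7. With the median ratio of miRNAs at 10 or more in both libraries set to 0, both miR-424 arms kept the 4-fold call (log2 2.67 and 2.46) and miR-503-5p passed it (2.12). The 4-fold calls of the X-linked members thus depend on the scaling, while their direction was the same under all 3.

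The other members were higher in Huh-7 or close. By share miR-15a-5p was 3.44-fold (CI 2.98 to 3.97), miR-16-5p 2.51-fold (CI 2.43 to 2.59), miR-15b-3p 2.42-fold and miR-15b-5p 2.31-fold (CI 2.20 to 2.44) higher in Huh-7, whereas on the deposited scale these folds were 1.82, 1.33, 1.28 and 1.23. miR-195-5p was 3.44-fold higher in Huh-7 by share (CI 2.003 to 5.92), with 16 reads in ES-2. miR-16-2-3p and miR-497-5p turned with the scale, at 1.02-fold and 1.10-fold higher in ES-2 as deposited and 1.84-fold and 1.71-fold higher in Huh-7 by share, the last with an interval that held 1 (CI 0.965 to 3.03).

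The median difference of ES-2 minus Huh-7 over the 10 members was -0.13 against -0.54 over all 390 miRNAs as deposited, and -1.05 against -1.44 by share. As deposited, 7 of 10 members were under 2-fold beside 30.5% of all miRNAs, but by share 3 of 10 were beside 22.6%. An exact binomial test of the recovered reads, two-sided with Benjamini-Hochberg adjustment at 0.05 and on the deposited scaling, called 3 members toward ES-2 and 5 toward Huh-7, beside 34.4% and 53.8% of all miRNAs. Such a test is on the reads of these libraries, not on cell lines. The 3 were the X-linked members, and the 5 were miR-15a-5p, miR-15b-5p, miR-15b-3p, miR-16-5p and miR-195-5p. The test by shares called the same 3 in ES-2, beside 25.6% of all miRNAs, and, with miR-16-2-3p added, 6 in Huh-7, beside 66.7%.

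**Figure D4:**
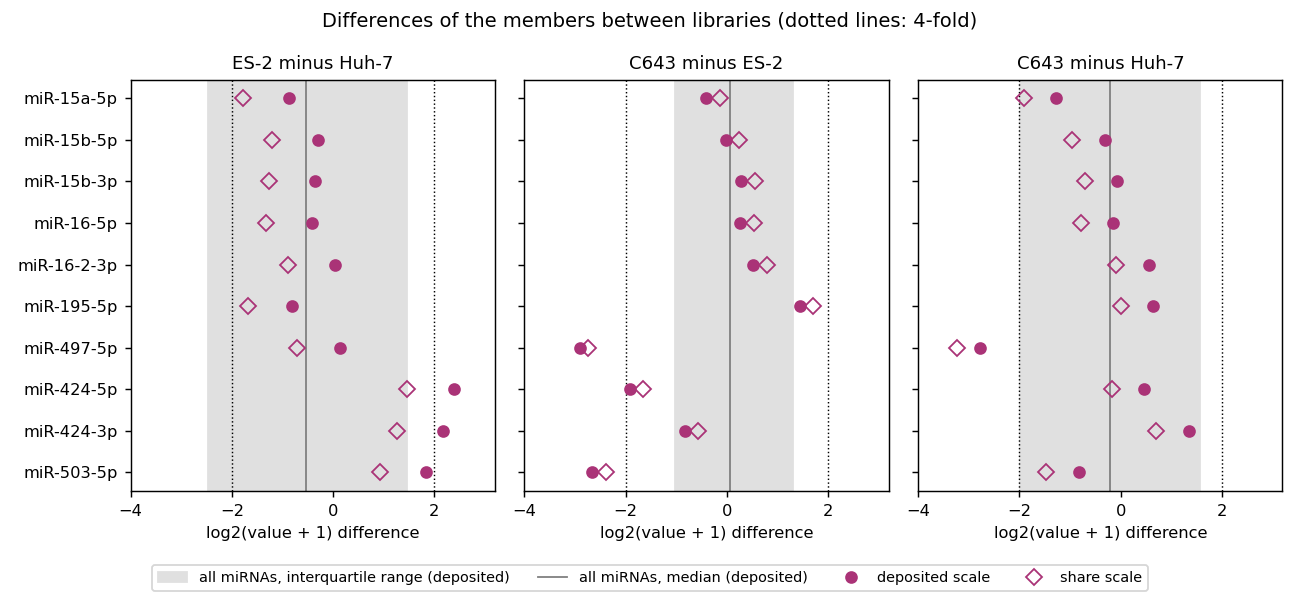
Differences of log2(value + 1) of the 10 members for each pair of libraries (x axis), on the deposited scale (filled circles) and with columns scaled to the same total (open diamonds); the grey band and line are the interquartile range and the median of all miRNAs tested, and dotted lines mark 4-fold. Of the scales drawn, miR-424-5p and miR-424-3p pass 4-fold in ES-2 over Huh-7 on the deposited one only, and miR-503-5p passes it in ES-2 over C643 on both; the points of miR-497-5p with C643 rest on 6 reads there.

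Setting C643 beside ES-2 and Huh-7 crosses the tables, and both comparisons use its 1 library. With ES-2, 351 miRNAs passed the filter, of which C643 was 4-fold or more higher for 15.4% and ES-2 for 10.8% as deposited, and for 19.4% and 9.69% by share. All 10 members were among them. No member was 4-fold higher in C643, and 2 were in ES-2 on both scales, miR-503-5p and miR-497-5p, the latter admitted by the filter only through its value of 11.8 in ES-2, against 0.703 in C643. The call of miR-497-5p is therefore no support for a difference of the members, and with a pseudocount of 10 it was lost (log2 -1.03), whereas that of miR-503-5p was kept (-2.61). By share miR-503-5p was 5.26-fold (CI 4.94 to 5.61) and miR-497-5p 13.9-fold (CI 5.50 to 35.4) higher in ES-2. miR-424-5p was 3.15-fold higher in ES-2 (CI 2.91 to 3.40) and miR-424-3p 1.47-fold. In C643 miR-195-5p was 3.47-fold (CI 2.09 to 5.74), miR-16-2-3p 1.73-fold, and miR-16-5p 1.45-fold higher by share. The median over the members was -0.21 as deposited, against 0.072 over all miRNAs.

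With Huh-7, 399 miRNAs passed, of which C643 was 4-fold or more higher for 22.6% and Huh-7 for 25.1% as deposited, and 19.3% and 32.1% by share. On both scales no member was 4-fold higher in C643 and 1 was in Huh-7, miR-497-5p, again admitted only through its value in Huh-7 (10.7), which had to differ, and lost with a pseudocount of 10 (log2 -0.95) or a filter at 100. Its share was 23.8-fold higher in Huh-7 (CI 10.1 to 56.4). Next came miR-15a-5p, 3.80-fold higher in Huh-7 by share, and miR-503-5p, 2.77-fold. miR-424-3p was higher in C643 on both scales, at 1.63-fold by share, and for miR-195-5p a ratio of shares of 1.01 had an interval that held 1 (CI 0.777 to 1.31). miR-16-2-3p and miR-424-5p were higher in C643 as deposited and in Huh-7 by share. The median over the members was -0.10, against -0.21 over all miRNAs as deposited.

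MIR424 and MIR503 open a longer cluster on the X chromosome. MIR542 follows 4890 bases after MIR503, and MIR450A2, MIR450A1 and MIR450B follow it. The miRNAs of this second stretch did not share the high level of ES-2. miR-542-3p had 513 reads or 0.00627% in C643, 80 reads or 0.00481% in ES-2 and 532 reads or 0.0245% in Huh-7. miR-450b-5p had 1054 reads or 0.0129%, 85 reads or 0.00511% and 1152 reads or 0.0530%. miR-450a-5p had 260 reads or 0.00318%, 79 reads or 0.00475% and 439 reads or 0.0202%. Unlike miR-542-3p and miR-450b-5p, miR-450a-5p was higher in ES-2 than in C643, by 1.49-fold by share (CI 1.16 to 1.92). All 3 were highest in Huh-7, the reverse of miR-424-5p and miR-503-5p in the pair of ES-2 and Huh-7.

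miR-450b-5p was 10.4-fold higher in Huh-7 than in ES-2 by share (CI 8.32 to 12.9), with a log2 difference of -2.44 as deposited. The arms of miR-424 and miR-503 together had 5.11 times the reads of the miR-450 and miR-542 arms in C643 (CI 4.87 to 5.37), 19.7 times in ES-2 (CI 17.4 to 22.4) and 1.34 times in Huh-7 (CI 1.27 to 1.42). The ratio in ES-2 was 14.7 times that in Huh-7 (CI 12.8 to 16.8). As a ratio within a library it does not depend on the scaling of the columns. The remaining products were low, with miR-542-5p at 41, 0 and 6 reads, miR-450a-1-3p at 26, 2 and 13, miR-450a-2-3p at 54, 6 and 24, and no read of miR-450b-3p.

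**Figure D5:**
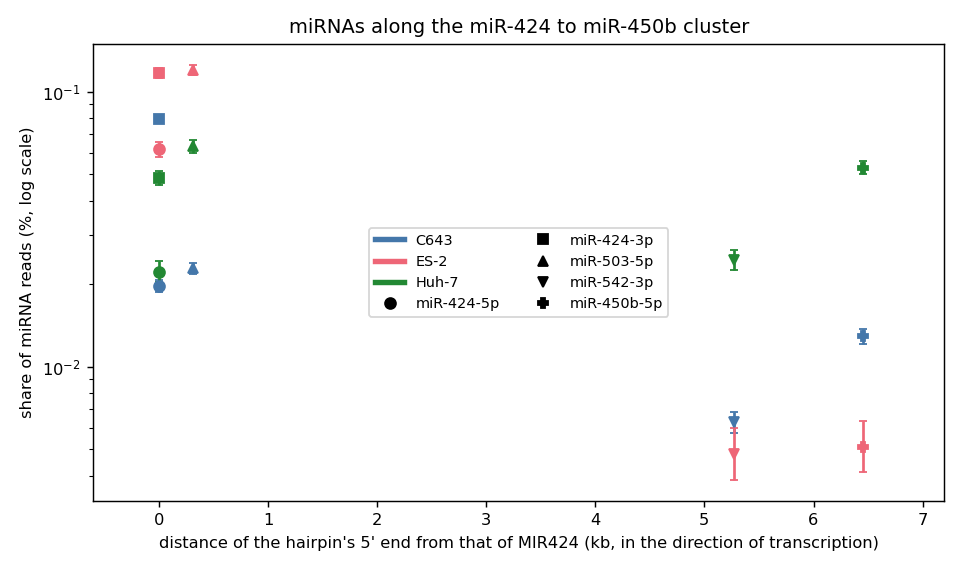
Share of miRNA reads (%, log scale) along the X-linked cluster against the distance of each hairpin's 5′ end from that of MIR424 (kb); colours are cell lines, symbols miRNAs, and bars Wilson 95% intervals. ES-2 is highest at miR-424 and miR-503 and lowest at miR-450b-5p, where Huh-7 is highest (0.0530%).

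Other miRNAs with a related seed were read beside the family. miR-6838-5p, the only further miRNA of the reference with the full seed, had 0, 2 and 0 reads in C643, ES-2 and Huh-7, and miR-646, which shares 6 seed bases, had none. miR-103a-3p and miR-107, whose seed is the same motif moved by 1 base, had more reads than miR-6838-5p and miR-646. The deposited reads of miR-103a-3p were 0.443%, 0.632% and 2.07% of C643, ES-2 and Huh-7, so that miR-16-5p had 1.01, 0.486 and 0.373 times its reads. miR-107 had 400 reads or 0.00489% in C643, 238 reads or 0.0143% in ES-2 and 631 reads or 0.0290% in Huh-7.

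The miRNAs whose shares across the 3 libraries were most like those of a member were ranked among 211 miRNAs at 100 or more in at least 1 library, by the root mean square (RMS) difference of centred log2 shares. For miR-16-5p the nearest was miR-15b-3p (RMS 0.032), for miR-15b-5p miR-574-3p (0.039) and for miR-15a-5p miR-423-5p (0.036). miR-503-5p was nearest to miR-671-5p (0.027) and miR-16-2-3p to miR-30e-3p (0.087). miR-424-5p was nearest to let-7c-5p (0.21) and miR-424-3p to miR-92b-3p (0.098), and the arms of MIR424 were further from each other (0.47). Even so, miR-424-3p was at place 3 of the 211 for miR-424-5p, whereas miR-424-5p was not among the 3 nearest to miR-424-3p. With 3 points per miRNA these are descriptions of the libraries only.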

How the data were processed

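Total RNA (TRIZOL, 50 ng input) was used for NEXTflex small RNA libraries and Illumina sequencing. The submitters' processing notes name cutadapt 1.14, Bowtie2 2.3.3, SAMtools 1.5, featureCounts 1.5.3, edgeR 3.18.1 and the build hg38. How multi-mapped reads were treated, the miRNA annotation and the use of random adapter bases are not given in the sources used here. The authors deposited 2 tables of a signal named CPM, whose columns summed to 959302 (C643), 1154550 (ES-2) and 612015 (Huh-7) and not to 1000000. Dividing by the smallest value of a column gave whole reads for 100% of nonzero values (tolerance 0.01 read).

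The loci of each mature miRNA were then added up. Shares, Wilson intervals, log-normal intervals of ratios, differences of log2(value + 1) and the exact binomial read test (SciPy 1.17.1, Python 3.11.15, pandas 2.3.3, numpy 2.4.6) were computed. For the share scale, columns were scaled to the same total before the pseudocount of 1 was added. A fold against 3 reads or fewer is given as a bound or with its interval. Each library was its own group, and the read test was tested on simulated data. Members, lists and tests were chosen with earlier results of these data known. The named miRNAs were the members, the other arms of their hairpins, their X-linked neighbours, miRNAs of a related seed, marker lists and the 3 nearest patterns of members at 100 or more. Alternatives covered denominators, pseudocounts, filters, thresholds, scaling and loci.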

Additional observations from a re-analysis of the deposited data

How the results depend on the processing

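No difference that passed 4-fold changed its direction under any alternative run, and no pairing of samples exists with 1 library per line. The family share (C643, ES-2 and Huh-7) was 0.593%, 0.577% and 0.680% per 1000000 units, 0.866%, 0.696% and 1.67% without miR-21-5p in the denominator, 0.476%, 0.406% and 0.8004% with the mean over loci, and 0.892%, 0.838% and 1.42% for all 10 members. With the mean over loci, miR-16-5p still led the miRNAs with the family seed. Its lead over the next of them was 1.64, 1.34 and 1.45 times in place of 3.27, 2.68 and 2.91. The smaller leads apply if reads of its sequence were counted at both loci.

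With columns scaled to the same total, 0 members were past 4-fold in ES-2 over Huh-7, beside 16.7% of all miRNAs. The median of the members was then -1.05 (ES-2 minus Huh-7), 0.054 (C643 minus ES-2) and -0.75 (C643 minus Huh-7). Over all miRNAs tested it was -1.44, 0.34 and -0.84, and it had moved in the same direction from the deposited scale. With the median ratio set to 0, the median of the members for ES-2 minus Huh-7 was 0.15. There 3 members were past 4-fold in ES-2, beside 22.6% of all miRNAs. At 8-fold as deposited 0 members passed in any pair, beside 16.2% and 21.3% of all miRNAs (ES-2 over Huh-7 and the reverse), 10.8% and 5.13% (C643 over ES-2 and the reverse) and 16.5% and 19.5% (C643 over Huh-7 and the reverse). For miR-497-5p this rests on the pseudocount of 1. Without it, its deposited value was 16.8-fold higher in ES-2 and 15.2-fold higher in Huh-7 than in C643, where it had 6 reads. A pseudocount of 10 left 1 member higher in ES-2 than C643 (6.84% of all) and 0 in Huh-7 over C643 (13.8%), as did a filter at 100 (9.58% and 21.7%), which 8 members passed. At 2-fold, the members past it numbered 3 and 0 for ES-2 over Huh-7 and the reverse (29.2% and 40.3% of all), 1 and 3 for C643 over ES-2 and the reverse (32.8% and 25.4%), and 1 and 2 for C643 over Huh-7 and the reverse (31.1% and 39.3%). The read test on the deposited scaling, which has no fold threshold, called 3 members in ES-2 and 5 in Huh-7. Beside these it called 34.4% and 53.8% of all miRNAs.

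Counts over all miRNAs also moved. With a pseudocount of 10 they were 60 (Huh-7 over ES-2), 22 (C643 over ES-2), 24 (ES-2 over C643) and 55 (Huh-7 over C643). Without a filter they were 180 (Huh-7 over ES-2), 123 and 82 (C643 over ES-2 and the reverse), and 141 and 173 (C643 over Huh-7 and the reverse). A filter at 100 left fewer miRNAs tested, 198 (ES-2 with Huh-7), 167 (C643 with ES-2) and 203 (C643 with Huh-7). The counts were then 48 and 42 (ES-2 over Huh-7 and the reverse), 18 and 16 (C643 over ES-2 and the reverse), and 54 and 44 (C643 over Huh-7 and the reverse). At 2-fold they were 115 and 89 (C643 over ES-2 and the reverse) and 157 (Huh-7 over C643), at 8-fold 18 (ES-2 over C643), and by the read test 134 and 210 (ES-2 over Huh-7 and the reverse).

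The depth limits miR-195-5p in ES-2 (16 reads) and miR-497-5p in C643 (6 reads), whose folds have wide intervals.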
